A study of Mus musculus with 12 samples.

Results

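The effect of a low-protein diet (LPD) against chow diet (CD) was measured in livers that carried the oncogenes c-MET and ΔN90-β-catenin. The comparison rested on 6 of the 12 bulk RNA-seq libraries of the study, 3 from LPD c-MET/β-catenin mice and 3 from CD c-MET/β-catenin mice, chosen by group from the labels. Per the figure legends of the paper each group held 3 mice. The 6 remaining libraries, 3 on each diet, carry WT in their titles and per the paper came from mice that received vector control (Vec). They served as the background for a diet effect without the oncogenes. The mice were male, and each group kept its diet from before the injection until harvest. The plasmids placed human c-MET and a β-catenin that lacks its N-terminus, and so escapes degradation, behind the EF1α promoter, were delivered by hydrodynamic tail vein injection, and were inserted into the genome by Sleeping Beauty transposase. Only some hepatocytes take up plasmid by this route, so every oncogene liver was a mixture of transfected and other cells. All groups were harvested when the CD c-MET/β-catenin mice reached their end point, and the labels give no tumour burden per liver. For a harvest at this point, the paper reports a smaller tumour burden in LPD than in CD c-MET/β-catenin mice. The livers compared here thus differed in diet and probably in tumour content, and the part of each in the values below was not tested. The labels name the cell type as hepatocyte, but whole liver tissue was used, and transcripts of stellate, endothelial and blood cells were present in every library. Alignment used only mouse sequence, so no separate value exists for the human c-MET transgene. Below, CD 1 to CD 3 and LPD 1 to LPD 3 are the c-MET/β-catenin libraries, and Vec libraries are always named as such.

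c-MET is the receptor of hepatocyte growth factor and signals through ERK, and β-catenin is the transcriptional arm of canonical Wnt signaling. In healthy liver, Wnt ligands from endothelial cells near the central vein keep β-catenin active in pericentral hepatocytes, which make glutamine, while periportal hepatocytes carry the urea cycle, gluconeogenesis and much of amino acid breakdown. A diet poor in protein lowers the load of amino acid nitrogen on the liver, and shortage of amino acids is sensed by the kinase Gcn2, which raises translation of the transcription factor Atf4.

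The 6 oncogene libraries held 19476209 to 31990267 counts, and 13947 genes passed the filter on low counts over all 12 libraries. Levels are given as CPM, counts scaled to a common library size, with edgeR's TMM factors, and fold changes are log2 LPD over CD from edgeR's quasi-likelihood test, with genes called at a Benjamini-Hochberg adjusted p under 0.05. The first principal component of the 6 libraries held 61.2% of the variance and separated the diets, with scores of -60.6, -42.6 and -38.8 on CD and 48.4, 38.9 and 54.6 on LPD. CD 1 stood apart on the second component (16%), with a score of 43.4 against -35 to 12.6 in the other libraries. The header of the count table carries numbers of the authors' workflow that fall into 3 separate ranges, called runs below, with no explanation in the labels. CD 1 and CD 2 belong to run 1, whereas CD 3 and all LPD libraries belong to run 2. Fold changes within run 2, which set the 3 LPD libraries against CD 3 alone, are therefore given beside those over all libraries. CD 3 has no replicate there, so that fit takes its spread from the other groups.

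In c-MET/β-catenin livers, 2784 of the 13947 genes tested (20.0%) differed between the diets. Of these, 1208 genes (8.66% of those tested) were higher on LPD, with a median log2 fold change of 0.85, and 1576 genes (11.3%) were lower, with a median of -1.32. Changes of at least 2-fold were found for 503 genes that rose (3.61%) and 1003 genes that fell (7.19%). The 3 LPD libraries lay above all 3 CD libraries for 2679 genes (19.2%) and below them for 2795 genes (20.0%), and the median over all genes was -0.0107. In Vec livers the same contrast called 43 genes (0.308%). The count in c-MET/β-catenin livers depended on which library was left out, from 1585 without LPD 3 and 1795 without LPD 1 to 3660 without Vec CD 2, and 1300 genes (570 higher and 730 lower) were called in all 12 fits that left out 1 library. With a term for the run in the model (below, the run term), 177 genes (1.27%) were called higher and 441 (3.16%) lower. A gene passed the filter on low counts when at least 3 of the 12 libraries reached it, so a scarce gene could pass through 1 diet group of oncogene livers alone. This was so for 586 genes (below, scarce members), and of the other 13361, 8.97% were called higher and 10.2% lower. For the gene lists below, the shares of 8.66% higher and 11.3% lower over all genes are given as the background, beside the count with the run term. Run 1 holds no library besides CD 1 and CD 2, so the run term takes up the values of both. Its fold changes in c-MET/β-catenin livers thus set LPD against CD 3 alone, as within run 2. Whether a call was lost through the run or through the loss of CD 1 and CD 2 cannot be told apart.

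**Figure D1:**
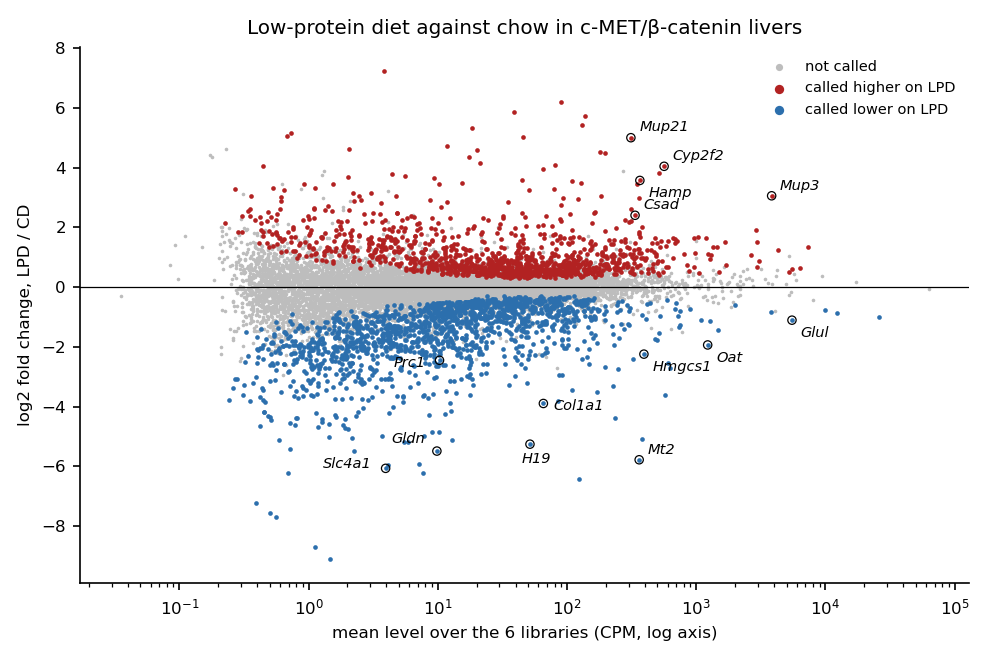
Log2 fold change (LPD over CD, y axis) of each of the 13947 genes tested against its mean level over the 6 c-MET/β-catenin libraries (CPM, log x axis). Red and blue points are the 1208 and 1576 genes called higher and lower on LPD, and ringed points carry the name of a gene described in the text.

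The largest rises were ranked among called genes with non-overlapping groups and a mean of at least 5 CPM, with clone, Gm, Rik and LOC names left out. The first 10 were dominated by major urinary proteins (Mups), small pheromone-binding proteins that male mouse hepatocytes secrete under growth hormone. They were Mup1, Mup2, Mup8, Mup12, Mup21, Mup9, Mup19 and Mup16, with log2 fold changes from 4.53 to 6.18, together with the pseudogene Serpina4-ps1 and the immunoglobulin heavy chain gene Ighg1. Mup3, the member with the highest mean level, was at 698, 726 and 1044 CPM on CD and 8305, 5185 and 7040 CPM on LPD (log2 fold change 3.06 ± 0.27 SE, adjusted p 0.000145). All LPD libraries exceeded all CD libraries, and the LPD levels were near those of Vec livers, with 8880 ± 2384 CPM on CD and 6722 ± 1043 CPM on LPD. Of the 21 tested genes with a Mup symbol, pseudogenes left out, 16 were called higher and 0 lower (76.2%, background 8.66%, 8 with the run term), with a median of 4.36, and 5.04 within run 2. The Mup list among the gene lists holds 14 of them and leaves out Mup6, Mup8, Mup9, Mup13, Mup16, Mup18 and Mup22. In the list, 10 were called higher and 0 lower (71.4%, background 8.66%, 3 with the run term). Mup1 was at 1.62, 3.71 and 2.13 CPM on CD and 392, 109.6 and 34.4 CPM on LPD and Mup2 at 1.24, 1.55 and 1.16 CPM on CD and 48.1, 6.42 and 174 CPM on LPD. Mup21 was at 26.4, 15.04 and 15.2 CPM on CD and 1264, 203 and 348 CPM on LPD. No CD library reached the lowest LPD library of these genes, but the LPD libraries themselves differed widely. Mup2 lost its call without any 1 of CD 1, CD 2, CD 3 or LPD 3 (log2 fold change 4.37 without LPD 3), and Mup8 without CD 1 (5.83). The log2 fold change of Mup8 was 3.75 without LPD 3. The Mups lie in a cluster on chromosome 4 (Mup1 at 60498012 to 60501960, GRCm38.p6) and are nearly identical in sequence, so how reads were divided among them is uncertain.

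Serpina4-ps1 was at 8.72, 8.32 and 0.561 CPM on CD and 319.6, 175 and 268 CPM on LPD (log2 fold change 5.43 ± 1.15 SE, adjusted p 0.00834), and Ighg1 was at 1.56, 0.734 and 0.337 CPM on CD and 9.18, 35.6 and 63.3 CPM on LPD (log2 fold change 5.31 ± 0.74 SE, adjusted p 0.00112). Both were separated between the diets in every library, with CD 3 lowest. Among the genes with the largest fall, H19, an imprinted noncoding RNA of fetal liver on chromosome 7, was at 74.95, 93.5 and 134 CPM on CD and 3.66, 3.44 and 0.787 CPM on LPD (log2 fold change -5.25 ± 0.54 SE, adjusted p 0.000333). Gldn, which encodes the cell adhesion protein gliomedin, was at 25.5, 19.3 and 12.9 CPM on CD and 0.586, 0.281 and 0.437 CPM on LPD (log2 fold change -5.48 ± 0.69 SE, adjusted p 0.000644). Igdcc4, a member of the immunoglobulin superfamily, was at 8.86, 16.1 and 7.26 CPM on CD and 0.293, 0.386 and 0.175 CPM on LPD (log2 fold change -5.19 ± 0.40 SE, adjusted p 8.48e-05). With the run term the log2 fold changes were -5.66 for H19, -4.91 for Gldn and -4.62 for Igdcc4, all called, and 8.81 for Serpina4-ps1, not called. Each of H19, Gldn and Igdcc4 was under 4 CPM in all LPD libraries and above 7 CPM in all CD libraries. Ren1 (renin, log2 fold change -6.22), Sprr1a (-5.92), the matrix protein gene Ccn5 (-5.20) and the neutrophil protease gene Prtn3 (-5.12) also fell. The metallothioneins Mt1 and Mt2, which bind zinc and copper, fell as well, but their fold rested on CD 1. Mt2 was at 2029, 64.2 and 38.2 CPM on CD and 7.67, 16.3 and 14.9 CPM on LPD. With CD 1 left out, the log2 fold change of Mt2 went from -5.78 to -1.98 (adjusted p 0.238), and that of Mt1 from -5.08 to -1.75 (adjusted p 0.185). Both also lost their call without any 1 LPD library.

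Genes of cell division were lower on LPD almost throughout. Of 45 genes of mitosis, 42 fell and 0 rose on LPD (93.3% against 11.3% over all genes), with a median log2 fold change of -2.02 and -2.36 within run 2. Without the 7 scarce members, 35 of 38 fell. Between 30 members (without LPD 3) and 44 fell when 1 library was left out, and 29 with a term for the run. In bulk liver, fewer dividing cells and less RNA per cell cannot be told apart. The promoters of 4 of these genes are shown, since this list had the largest share of members called in 1 direction among the 52 lists examined. They run from 250 bases before to 49 bases after the annotated start (RefSeq, GRCm38.p6, 5′ to 3′). Capitals mark TTTGAA, the core of the cell cycle homology region bound by the DREAM and MuvB complexes, and CCAAT, the box bound by NF-Y, on either strand.
Prc1 (chr7:80294201-80294500, plus strand): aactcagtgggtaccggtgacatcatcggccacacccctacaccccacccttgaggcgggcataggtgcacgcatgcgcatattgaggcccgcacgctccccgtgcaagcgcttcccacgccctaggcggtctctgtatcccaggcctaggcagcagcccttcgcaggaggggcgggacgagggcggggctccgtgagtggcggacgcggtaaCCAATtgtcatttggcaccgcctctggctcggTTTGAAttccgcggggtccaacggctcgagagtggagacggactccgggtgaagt
Mki67 (chr7:135716330-135716629, minus strand): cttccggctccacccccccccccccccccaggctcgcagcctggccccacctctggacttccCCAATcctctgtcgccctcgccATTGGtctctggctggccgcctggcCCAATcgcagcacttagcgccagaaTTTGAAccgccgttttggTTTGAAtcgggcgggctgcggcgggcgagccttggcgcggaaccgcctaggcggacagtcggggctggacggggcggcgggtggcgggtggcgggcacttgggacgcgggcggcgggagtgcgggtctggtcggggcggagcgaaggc
Ube2c (chr2:164769679-164769978, plus strand): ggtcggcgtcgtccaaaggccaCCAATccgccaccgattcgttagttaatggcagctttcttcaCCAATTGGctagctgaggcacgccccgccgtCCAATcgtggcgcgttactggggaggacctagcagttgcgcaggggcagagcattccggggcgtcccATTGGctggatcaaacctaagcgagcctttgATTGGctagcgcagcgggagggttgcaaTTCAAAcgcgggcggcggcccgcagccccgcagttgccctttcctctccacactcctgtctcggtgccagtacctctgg
Cep55 (chr19:38054791-38055090, plus strand): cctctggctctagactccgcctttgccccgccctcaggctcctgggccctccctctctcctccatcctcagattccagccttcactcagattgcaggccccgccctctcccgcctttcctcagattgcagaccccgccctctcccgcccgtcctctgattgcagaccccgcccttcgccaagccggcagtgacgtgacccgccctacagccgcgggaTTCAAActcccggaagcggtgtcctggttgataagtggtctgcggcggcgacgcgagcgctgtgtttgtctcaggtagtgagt

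In the windows shown, TTTGAA lay 5 bases before the start of Prc1, 116 and 98 bases before that of Mki67, 29 bases before that of Ube2c and 33 bases before that of Cep55. Prc1 and Cep55 each have a second annotated start, from which it lay 30 bases before for Prc1 and 24 bases after for Cep55. Over the list, 38 of 45 genes matched the promoter table, with 41 windows, of which 30 (73.2%) held TTTGAA on either strand and 28 (68.3%) held CCAAT. Of all 32851 windows of the table, 17.9% held TTTGAA and 37.4% held CCAAT. Both occurred together in 58.5% of the mitosis windows and in 6.95% of all windows. The windows of DNA replication genes held TTTGAA in 20.4% of cases and CCAAT in 55.1%. The E2F site GGCGGGA was in 30.6% of them, in 26.8% of the mitosis windows, in 26.7% of those of oxidative phosphorylation genes and in 11.3% of all windows. The windows of cholesterol synthesis genes held CCAAT in 83.3% and TTTGAA in 5.56%. Some genes have several, partly overlapping windows, and a match is a description of the letters only.

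Prc1, which bundles microtubules of the dividing cell, was at 17.7, 12.6 and 21.96 CPM on CD and 2.93, 5.01 and 1.57 CPM on LPD (log2 fold change -2.45 ± 0.42 SE, adjusted p 0.00259). Ube2c, the ubiquitin-conjugating enzyme of the anaphase-promoting complex, was at 17, 11.9 and 19.01 CPM on CD and 2.83, 4.42 and 1.22 CPM on LPD (log2 fold change -2.49 ± 0.48 SE, adjusted p 0.00496). Cep55, needed for the final abscission of daughter cells, was at 3.84, 2.895 and 4.303 CPM on CD and 0.440, 0.772 and 0.656 CPM on LPD (log2 fold change -2.54 ± 0.51 SE, adjusted p 0.00538). In all of these, every LPD library lay below every CD library. Mki67, which encodes the proliferation antigen Ki-67, had the highest mean level of the list, at 47.97, 53.8 and 68.5 CPM on CD and 19.6, 23.99 and 7.08 CPM on LPD (log2 fold change -1.75 ± 0.45 SE, adjusted p 0.0191). In Vec livers Mki67 was at 2.12 ± 1.59 CPM on CD and 1.76 ± 0.396 CPM on LPD, so LPD oncogene livers stayed above the Vec level. The 3 members that were not called were Spc25, Dlgap5 and Ncaph. The gene Prc1 overlaps Rccd1 in the annotation.

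Among 47 DNA replication genes, 21 fell and 1 rose (44.7% and 2.13%, background 11.3% and 8.66%, 9 and 0 with the run term), with a median of -0.77 and -1.02 within run 2. Without the 2 scarce members, 20 of 45 fell. This count was less stable than that of mitosis: it was 7 without LPD 1, 8 without LPD 3, 10 without CD 2, and 11 without CD 3 or LPD 2. Mcm6, a subunit of the replicative helicase, was at 9.87, 15.04 and 18.8 CPM on CD and 2.1, 3.12 and 2.01 CPM on LPD (log2 fold change -2.58 ± 0.61 SE, adjusted p 0.0132), but lost its call without LPD 1 (-2.49) or LPD 3 (-2.46). Rrm2, the small subunit of ribonucleotide reductase, was at 45.6, 9.74 and 21.1 CPM on CD and 6.399, 6.73 and 4.98 CPM on LPD (log2 fold change -2.08 ± 0.42 SE, adjusted p 0.00615), and its log2 fold change was -1.35 without CD 1. For both genes all LPD libraries were below all CD libraries. The 1 gene that rose was Mcm10, a factor that starts the helicase, at 17.6, 28.7 and 23.5 CPM on CD and 127, 74.3 and 88.95 CPM on LPD (log2 fold change 2.06 ± 0.40 SE, adjusted p 0.00507). Its level in Vec livers, 194 ± 126 CPM on CD and 95.5 ± 12.98 CPM on LPD, was also higher than in CD c-MET/β-catenin livers. Of 29 genes of homologous recombination and the Fanconi pathway, 7 fell and 1 rose (24.1% and 3.45%, background 11.3% and 8.66%, 3 and 0 with the run term, median -0.43), and 4 fell without LPD 3. Without the 4 scarce members, 6 of 25 fell. Among those that fell was Bard1, a ubiquitin ligase subunit of this pathway (log2 fold change -2.11 ± 0.42 SE, adjusted p 0.00543), which was under 2.5 CPM in every library. The count that rose was 0 without CD 1, CD 2, any 1 LPD library, Vec CD 1, Vec CD 3 or any 1 Vec LPD library.

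The oncogene targets fell in part. Axin2, a feedback inhibitor that reports β-catenin activity, was at 94.7, 64.2 and 64.2 CPM on CD and 37.1, 36.3 and 24.04 CPM on LPD (log2 fold change -1.20 ± 0.22 SE, adjusted p 0.00366). Glul, the glutamine synthetase of pericentral hepatocytes, was at 8605, 7318 and 6633 CPM on CD and 4110, 3887 and 2489 CPM on LPD (log2 fold change -1.10 ± 0.21 SE, adjusted p 0.00420). Tcf7, a transcription factor of the pathway, was at 33.6, 37.9 and 28.5 CPM on CD and 11.6, 9.29 and 8.13 CPM on LPD (log2 fold change -1.79 ± 0.18 SE, adjusted p 0.000280). No LPD library reached a CD library for these genes, and Glul on LPD was still above its Vec levels of 875 ± 125 CPM on CD and 1066 ± 132 CPM on LPD. Lgr5, the R-spondin receptor, was at 33.7, 32.9 and 25.6 CPM on CD and 16.1, 12.9 and 6.03 CPM on LPD and was not called (log2 fold change -1.40 ± 0.46 SE, adjusted p 0.0527). Of 16 β-catenin targets and feedback genes, 7 fell and 0 rose (43.8%, background 11.3%, 1 with the run term, median -0.93, within run 2 -0.62), with 3 falling without CD 2 or without LPD 3. Mouse Ctnnb1, which encodes β-catenin itself, was at 263, 347 and 349.6 CPM on CD and 364, 333 and 286 CPM on LPD, and mouse Met was at 61.5, 92.5 and 80.3 CPM on CD and 88.5, 81.4 and 77.3 CPM on LPD. Neither was called, and the diet groups overlapped (log2 fold changes 0.035 ± 0.15 and 0.077 ± 0.20). Reads of the truncated β-catenin transgene could align to mouse Ctnnb1, and their share was not tested. Of 17 genes of MET and ERK feedback, 3 fell and 0 rose (17.6%, background 11.3%, 1 with the run term, median -0.55): Etv4, a transcription factor downstream of ERK, and the ERK phosphatases Dusp5 (log2 fold change -1.94 ± 0.30 SE, adjusted p 0.00150) and Dusp4 (log2 fold change -1.28 ± 0.29 SE, adjusted p 0.00986). Without the 2 scarce members, 2 of 15 fell. The count of 3 was 5 without CD 3, Vec CD 2 or Vec CD 3. Of 22 p53 targets, 5 fell and 1 rose (22.7% and 4.55%, background 11.3% and 8.66%, 1 and 0 with the run term), with Btg2, an antiproliferative gene, at 128, 37.3 and 29.7 CPM on CD and 6.06, 7.996 and 5.95 CPM on LPD. Without the 2 scarce members, 3 of 20 fell. In Btg2 CD 1 was highest, and without it the log2 fold change of Btg2 was -2.32 instead of -3.28. The count of p53 targets that fell was 3 without CD 1, LPD 3 or Vec LPD 2. The count that rose in this list was 0 without CD 2 or LPD 3 and 2 without CD 1 or CD 3.

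Periportal and pericentral genes moved in opposite directions, though fewer of them were called with the run term. Of 20 periportal genes, 13 rose and 2 fell (65% and 10%, background 8.66% and 11.3%, 4 and 0 with the run term, median 1.41, within run 2 0.90). Of 20 pericentral genes, 10 fell and 0 rose (50%, background 11.3%, 2 with the run term, median -0.93, within run 2 -0.80). Cyp2f2, a periportal cytochrome P450, was at 57.2, 48.6 and 87.8 CPM on CD and 1199, 961 and 1031 CPM on LPD (log2 fold change 4.04 ± 0.23 SE, adjusted p 8.58e-06). Hsd17b6, a steroid dehydrogenase, was at 4.65, 15.3 and 7.15 CPM on CD and 129.6, 151 and 176 CPM on LPD (log2 fold change 4.08 ± 0.64 SE, adjusted p 0.00192). Hal, which starts histidine breakdown, was at 17.6, 15.9 and 35.99 CPM on CD and 179, 111 and 178 CPM on LPD (log2 fold change 2.75 ± 0.31 SE, adjusted p 0.000409). For these 3 genes the lowest LPD library was at least 3 times the highest CD library, and CD 3 or CD 2 was the highest on CD. In the pericentral list, Oat, which turns ornithine into glutamate, was at 1564, 1437 and 2829 CPM on CD and 649, 407 and 469 CPM on LPD (log2 fold change -1.93 ± 0.31 SE, adjusted p 0.00193). Slc13a3, a dicarboxylate transporter, was at 344, 227 and 224 CPM on CD and 81.9, 76.95 and 60.5 CPM on LPD (log2 fold change -1.86 ± 0.23 SE, adjusted p 0.000550). All 3 LPD libraries of both were below all CD libraries. The lists of pericentral genes and β-catenin targets share members such as Glul and Axin2. The periportal and amino acid lists likewise share Hal. The 2 periportal genes that fell were Hpx, which binds free heme, and Agxt, which detoxifies glyoxylate, and this count was 1 without CD 1, CD 3 or LPD 3.

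**Figure D2:**
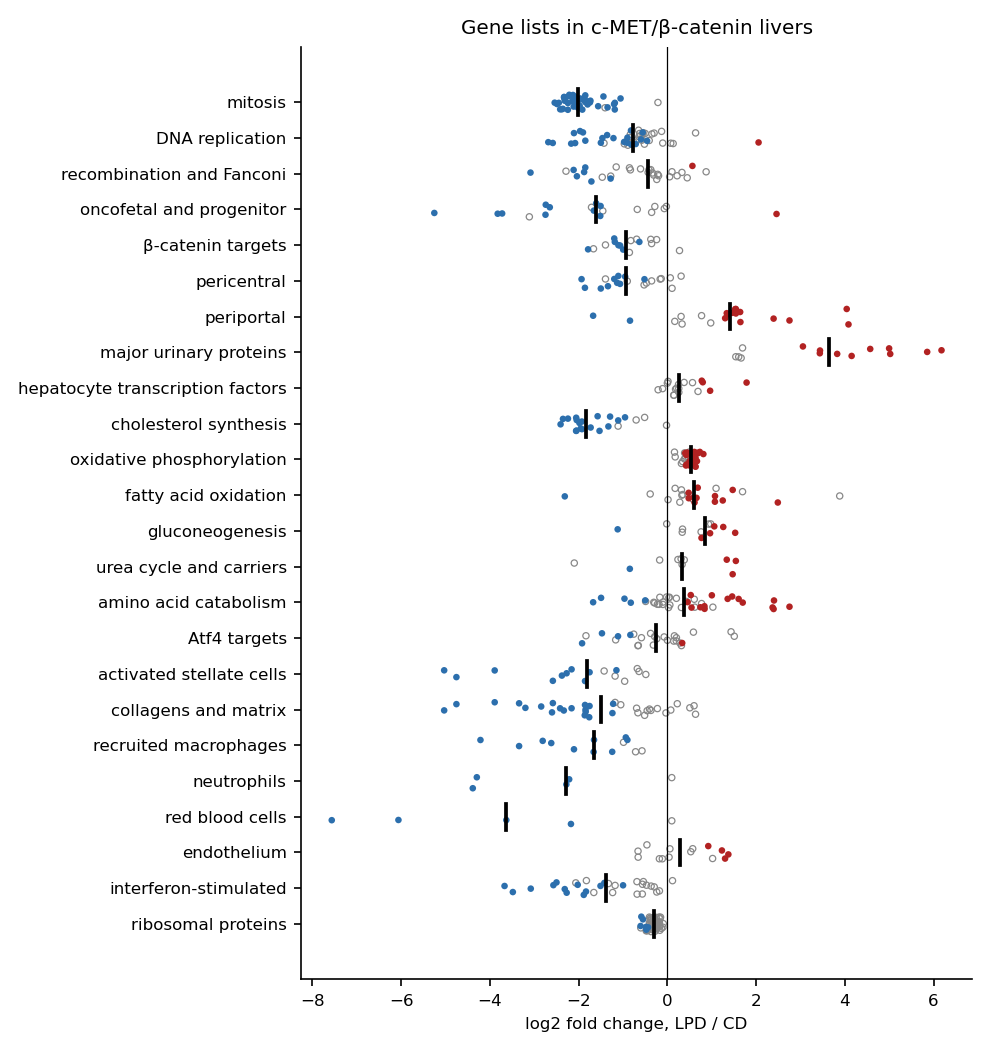
Log2 fold change (LPD over CD, x axis) of each tested member of 24 gene lists in c-MET/β-catenin livers. Filled red and blue points are members called higher and lower, open points were not called, and the black bar is the list's median. All mitosis members lie below 0, with a median of -2.02, and all nuclear oxidative phosphorylation members lie above 0, with a median of 0.53.

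Of 19 genes of fetal liver and progenitors, 10 fell and 1, the imprinted gene Peg3, rose (52.6% and 5.26%, background 11.3% and 8.66%, 3 and 0 with the run term, median -1.60, within run 2 -1.41). Without the 2 scarce members, 9 of 17 fell. Afp, the fetal counterpart of albumin and a marker of liver cancer, was at 369.9, 671 and 245 CPM on CD and 115, 56.5 and 20.3 CPM on LPD (log2 fold change -2.75 ± 0.70 SE, adjusted p 0.0190). It lost its call without CD 2 (-2.27), LPD 2 (-2.66) or LPD 3 (-2.32). Scd2, a fatty acid desaturase of fetal liver, was at 95.7, 197 and 188 CPM on CD and 12.5, 15.1 and 6.25 CPM on LPD (log2 fold change -3.83 ± 0.83 SE, adjusted p 0.00941), and Bex1 was at 1.33, 6.81 and 3.85 CPM on CD and 0.195, 0.526 and 0.131 CPM on LPD (log2 fold change -3.72 ± 0.62 SE, adjusted p 0.00214). In each of the 3 genes LPD 3 was lowest, and no LPD library reached a CD library. Among 18 hepatocyte transcription factors 4 rose and 0 fell (22.2%, background 8.66%, 1 with the run term, median 0.26). They were Cebpa, Onecut1, Nr1h4, the bile acid receptor FXR, at 73.2, 80.4 and 69.9 CPM on CD and 150.4, 139 and 147 CPM on LPD (log2 fold change 0.96 ± 0.18 SE, adjusted p 0.00380), and Creb3l3, a regulator of fasting metabolism, at 205, 256 and 181 CPM on CD and 366, 408 and 342 CPM on LPD (log2 fold change 0.80 ± 0.14 SE, adjusted p 0.00344). Of 14 secreted proteins that make up much of the hepatocyte transcriptome, 1 rose and 4 fell (7.14% and 28.6%, background 8.66% and 11.3%, 0 and 0 with the run term), among the latter Trf (transferrin, log2 fold change -0.99 ± 0.17 SE, adjusted p 0.00288), and their summed level was 180100, 146800 and 153800 CPM on CD and 112700, 137400 and 148900 CPM on LPD. The count that fell was 2 without CD 1 or any 1 LPD library, and the count that rose was 0 without CD 2, CD 3 or LPD 2 and 3 without CD 1.

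**Figure D3:**
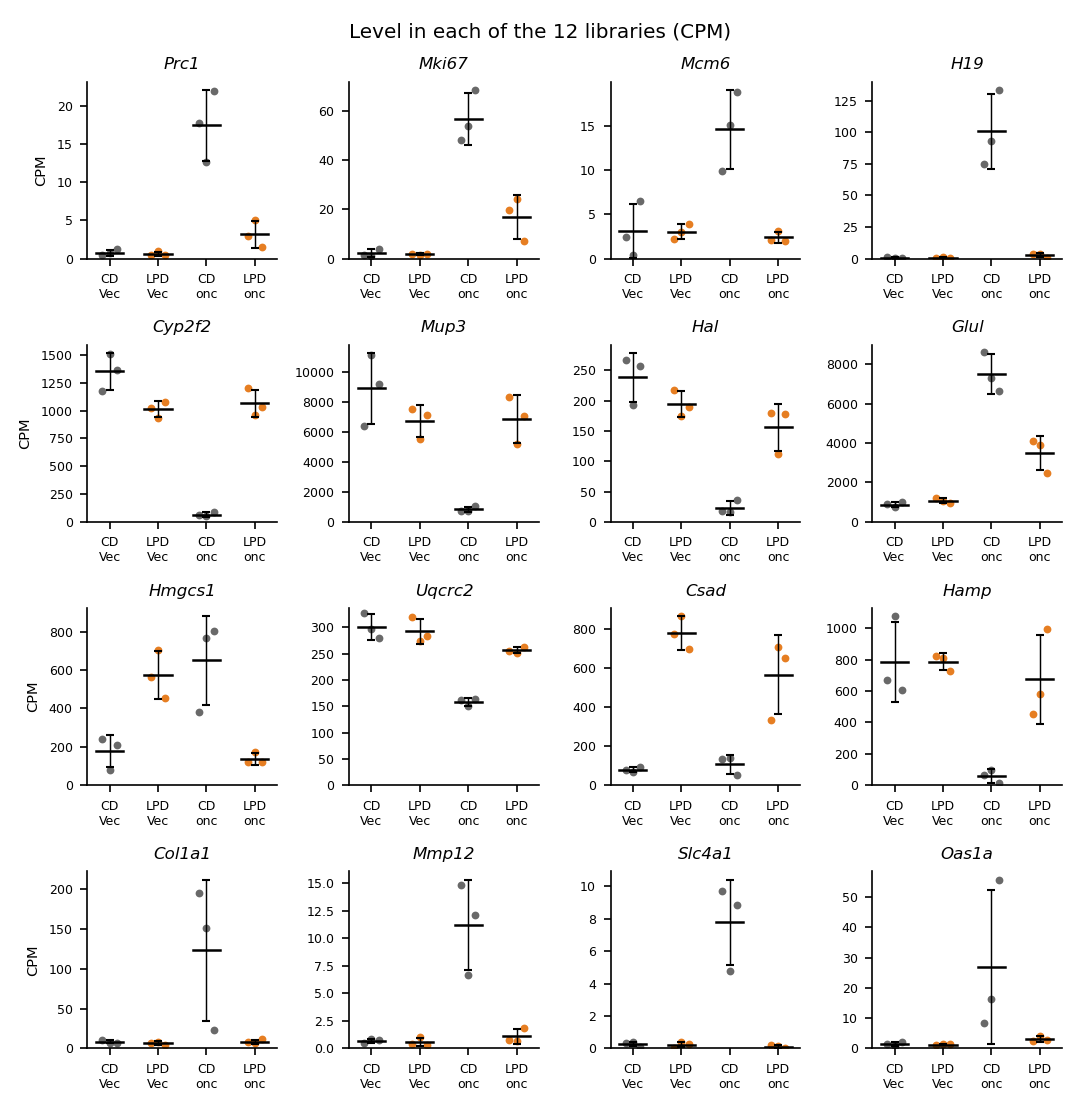
Level (CPM, y axes starting at 0) of 16 genes in each of the 12 libraries, by group, where "onc" stands for c-MET/β-catenin. Points are libraries, horizontal lines are group means and error bars are SD (n = 3). Cyp2f2, Mup3, Hal and Hamp on LPD lie near the Vec levels, whereas Mki67 and Glul on LPD lie between the Vec and the CD c-MET/β-catenin levels.

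Among the metabolic lists, cholesterol synthesis fell. Of 22 genes of cholesterol synthesis, 18 fell and 0 rose (81.8%, background 11.3%, 12 with the run term), with a median of -1.83 and -1.98 within run 2. Hmgcs1, which makes HMG-CoA for the pathway, was at 382, 764 and 803 CPM on CD and 118, 174 and 121 CPM on LPD (log2 fold change -2.24 ± 0.40 SE, adjusted p 0.00320). Mvk, mevalonate kinase, was at 53.4, 104 and 95.3 CPM on CD and 16.4, 15.6 and 15.5 CPM on LPD (log2 fold change -2.41 ± 0.29 SE, adjusted p 0.000544). All LPD libraries were below all CD libraries, and CD 1 was the lowest CD library of both.

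Of 36 nuclear genes of oxidative phosphorylation, 27 rose and 0 fell (75% against 8.66% over all genes), each by a small amount (median 0.53, within run 2 0.48). Uqcrc2, a core subunit of complex III, was at 162, 150.2 and 163 CPM on CD and 256, 251 and 263 CPM on LPD (log2 fold change 0.70 ± 0.11 SE, adjusted p 0.00208). Ndufb8, a subunit of complex I, was at 64.2, 68.5 and 71.7 CPM on CD and 111, 99.01 and 129.8 CPM on LPD (log2 fold change 0.73 ± 0.13 SE, adjusted p 0.00334), and Ndufb3, a further subunit of complex I, at 30.5, 30.3 and 33.4 CPM on CD and 57.4, 50.1 and 57.9 CPM on LPD (log2 fold change 0.81 ± 0.17 SE, adjusted p 0.00627). In 34 of the 36 genes every LPD library was above every CD library (19.2% over all genes). Atp5b, the catalytic subunit of ATP synthase, was at 930.2, 917 and 1053 CPM on CD and 1318, 1278 and 1190 CPM on LPD and was not called (log2 fold change 0.38 ± 0.13 SE, adjusted p 0.0593). The count of members that rose was 11 without LPD 3, 16 without LPD 1 and 17 without CD 1 or CD 2, and with a term for the run it was 0, although the median within run 2 was nearly as large. Since the run term leaves CD 3 as the only CD library, the run and the loss of replicates cannot be told apart in that count. The gene Uqcrc2 overlaps Pdzd9 in the annotation.

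Fatty acid oxidation and ketone synthesis held 11 genes that rose and 1 that fell of 23 (47.8% and 4.35%, background 8.66% and 11.3%, 1 and 0 with the run term, median 0.59, within run 2 0.76), with counts of 6 without CD 3, LPD 2 or LPD 3. The gene that fell, Pdk4, which restrains glucose oxidation, gave a count of 0 without CD 1, LPD 1 or LPD 3. Fabp1, the fatty acid-binding protein of liver, was at 1652, 3511 and 2452 CPM on CD and 4020, 7307 and 6777 CPM on LPD (log2 fold change 1.25 ± 0.28 SE, adjusted p 0.00939). Acot1, an acyl-CoA thioesterase, was at 16.9, 12.6 and 11.3 CPM on CD and 23.2, 136 and 70.3 CPM on LPD (log2 fold change 2.49 ± 0.58 SE, adjusted p 0.0125). LPD 1 was the lowest LPD library of both, though above all CD libraries. In gluconeogenesis and glycogen metabolism, 5 of 12 genes rose (41.7%, background 8.66%, 1 with the run term, median 0.85), Gys2, Pygl, Slc2a2, Fbp1, fructose-1,6-bisphosphatase, at 438, 269.8 and 398 CPM on CD and 1124, 938 and 1129 CPM on LPD (log2 fold change 1.53 ± 0.24 SE, adjusted p 0.00175), and Slc37a4, the glucose 6-phosphate transporter, at 104, 83.2 and 84.2 CPM on CD and 223, 187 and 239 CPM on LPD (log2 fold change 1.26 ± 0.18 SE, adjusted p 0.00111). The 1 gene that fell was the coactivator gene Ppargc1a, and this count was 0 without CD 1 or any 1 LPD library. Glycolysis was divided, with 3 genes higher and 4 lower of 22 (13.6% and 18.2%, background 8.66% and 11.3%, 0 and 0 with the run term, median -0.43). Pkm, the pyruvate kinase of muscle and dividing cells, was at 232, 67.4 and 43.7 CPM on CD and 20.2, 29 and 26.5 CPM on LPD (log2 fold change -2.18 ± 0.53 SE, adjusted p 0.0155). The Pkm value rested in part on CD 1, without which the log2 fold change was -1.14. Pkm also lost its call without LPD 1 (-2.03) or LPD 3 (-2.21). The count of glycolysis genes that fell was 0 without LPD 1, 1 without LPD 3 and 2 without CD 1 or LPD 2, and the count that rose was 1 without CD 2 or LPD 1.

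Bile acid genes rose in 7 of 18 cases and fell in 1 (38.9% and 5.56%, background 8.66% and 11.3%, 3 and 1 with the run term, median 0.45). Cyp8b1, which sets the share of cholic acid, was at 46.2, 31.4 and 59.5 CPM on CD and 212, 140 and 168 CPM on LPD (log2 fold change 1.92 ± 0.26 SE, adjusted p 0.000886), and the 1 gene that fell was the uptake transporter gene Slco1a4, at 31.2, 42.6 and 51.5 CPM on CD and 5.23, 6.804 and 4.896 CPM on LPD (log2 fold change -2.88 ± 0.36 SE, adjusted p 0.000614). The diets did not overlap for either gene, and without Vec CD 1 the count that fell was 2. Of 29 cytochrome P450 genes of families 1 to 3, 8 rose and 2 fell (27.6% and 6.9%, background 8.66% and 11.3%, 3 and 2 with the run term), including Cyp2f2 and Cyp2u1, the latter at 1.99, 3.26 and 2.43 CPM on CD and 44.5, 18.03 and 22.5 CPM on LPD (log2 fold change 3.47 ± 0.40 SE, adjusted p 0.000436). The count that fell was 0 without LPD 3, 1 without CD 3 or LPD 1 and 5 without CD 1. In the growth hormone and IGF axis, 6 of 18 genes rose and 1 fell (33.3% and 5.56%, background 8.66% and 11.3%, 0 and 0 with the run term). Hsd3b5, a male-specific steroid enzyme, was at 9.32, 25.9 and 16.3 CPM on CD and 334, 115 and 157 CPM on LPD (log2 fold change 3.56 ± 0.59 SE, adjusted p 0.00244). Igfbp1, a binding protein that insulin lowers, was at 2212, 569.9 and 385 CPM on CD and 71.3, 124 and 61.02 CPM on LPD (log2 fold change -3.62 ± 0.80 SE, adjusted p 0.00980), and without CD 1 its log2 fold change was -2.48. Igf1 itself was at 513, 254 and 341 CPM on CD and 549.6, 519 and 689 CPM on LPD and was not called (log2 fold change 0.66 ± 0.24 SE, adjusted p 0.0726), except without CD 1 (0.98, adjusted p 0.0113). The count that rose in this list was 2 without LPD 1 and 3 without CD 2 or CD 3. Fatty acid and triglyceride synthesis held 4 genes that rose (Me1, Thrsp, Mlxipl and Pklr) and 0 that fell of 21 (19%, background 8.66%, 0 with the run term), with counts of 0 without LPD 1 and 2 without CD 1 or LPD 3.

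Nitrogen metabolism did not move as 1 block. Of the 10 genes of the urea cycle and its carriers, 3 rose and 1 fell (30% and 10%, background 8.66% and 11.3%, 0 and 0 with the run term, median 0.32, within run 2 0.071). Cps1, which fixes ammonia as the first step, was at 339, 114 and 473 CPM on CD and 1081, 536 and 1084 CPM on LPD (log2 fold change 1.54 ± 0.46 SE, adjusted p 0.0337). Otc, the next enzyme, was at 43.3, 72.04 and 126 CPM on CD and 278, 165 and 226 CPM on LPD (log2 fold change 1.47 ± 0.33 SE, adjusted p 0.00940). For both genes every LPD library exceeded every CD library, with CD 2 lowest for Cps1 and CD 1 lowest for Otc. Ass1, which joins citrulline and aspartate, was at 293, 128 and 473 CPM on CD and 427, 301 and 380.4 CPM on LPD, and Asl, which cleaves the product, was at 206, 152 and 194 CPM on CD and 218, 214 and 264 CPM on LPD. Neither was called (log2 fold change 0.31 ± 0.42 SE, adjusted p 0.650 and log2 fold change 0.33 ± 0.18 SE, adjusted p 0.220), and the diet groups overlapped for Ass1. Nags, which makes the activator of Cps1, fell (log2 fold change -0.85 ± 0.21 SE, adjusted p 0.0146), from 191, 100.5 and 102 CPM to 73.1, 70.5 and 75.8 CPM. The carriers Slc25a15 (0.24), Slc25a13 (0.38) and Slc25a12 (-0.17) were not called.

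The urea cycle calls were among the less stable. Cps1 lost its call without CD 1 (1.62), CD 2 (1.15), LPD 1 (1.40) or LPD 3 (1.39), and Nags without LPD 2 (-0.82), while Otc was called in all 12 fits. Without CD 1 the log2 fold change of Nags was -0.47. The count of genes that rose was 1 without LPD 3, and the count that fell was 0 without LPD 2 and 2 without CD 3, LPD 3 or Vec LPD 1. Within run 2, the log2 fold changes were 0.93 for Cps1, 0.82 for Otc and -0.36 for Ass1. CD 3 had the highest Cps1, Otc and Ass1 levels of the CD libraries. In Vec livers, Cps1 was at 2652 ± 562 CPM on CD and 1172 ± 381 CPM on LPD, and Otc was at 516 ± 40.5 CPM on CD and 256 ± 51.8 CPM on LPD. The LPD levels of both genes in c-MET/β-catenin livers were thus below the Vec CD means.

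Of 40 genes of amino acid catabolism, 15 rose and 5 fell (37.5% and 12.5%, background 8.66% and 11.3%, 3 and 1 with the run term, median 0.37, within run 2 0.21). The count that fell (Tat, Agxt, Agxt2, Got1 and Bckdhb) was 2 without CD 1, CD 3, LPD 2 or LPD 3 and 3 without Vec LPD 1. Gldc, of the glycine cleavage system, was at 26.9, 8.28 and 30.9 CPM on CD and 141, 84.5 and 123 CPM on LPD (log2 fold change 2.40 ± 0.46 SE, adjusted p 0.00497). Csad, which commits cysteine to taurine, was at 132, 139 and 49.6 CPM on CD and 334, 709.8 and 653 CPM on LPD (log2 fold change 2.40 ± 0.37 SE, adjusted p 0.00161). Every LPD library was above every CD library for both, and CD 3 had the lowest Csad level. In glutamine and ammonia handling, 6 of 17 genes fell and 1 rose (35.3% and 5.88%, background 11.3% and 8.66%, 1 and 0 with the run term), with 3 falling without LPD 3. The gene that rose was Gls2, the glutaminase of periportal liver, at 35.5, 19.4 and 84 CPM on CD and 176, 104 and 154 CPM on LPD (log2 fold change 1.64 ± 0.43 SE, adjusted p 0.0214). It was not called without CD 1 (1.48), LPD 1 (1.48) or LPD 3 (1.60). The 6 that fell include Glul and Oat, described above. Of 21 genes of pyrimidine metabolism, 2 rose and 5 fell (9.52% and 23.8%, background 8.66% and 11.3%, 0 and 2 with the run term), with counts that fell of 2 without LPD 1 or LPD 3 and counts that rose of 1 without LPD 2 or LPD 3. Ctps2, which makes CTP, was at 27.2, 27.3 and 28.5 CPM on CD and 10.1, 12.1 and 12.1 CPM on LPD (log2 fold change -1.27 ± 0.19 SE, adjusted p 0.00122). Dpyd, which breaks pyrimidines down, was at 161, 128 and 198 CPM on CD and 371, 309 and 379.5 CPM on LPD (log2 fold change 1.12 ± 0.21 SE, adjusted p 0.00356). These 2 genes were separated between the diets in opposite directions. Cad, which carries the first steps of pyrimidine synthesis, was at 20.3, 16.7 and 15.6 CPM on CD and 22.7, 23.6 and 19.4 CPM on LPD and was not called (log2 fold change 0.32 ± 0.27 SE, adjusted p 0.436). Of 10 polyamine genes, Azin1 rose (2 without CD 1) and Sat1 and Smox fell (10% and 20%, background 8.66% and 11.3%, 0 and 0 with the run term). Of 13 genes of the methionine cycle, Mat2a and Nnmt fell and 0 rose (15.4%, background 11.3%, 0 with the run term, 0 without LPD 3 and 1 without CD 1, CD 3 or LPD 2). Of 20 aminoacyl-tRNA synthetases, Dars, Iars, Mars1 and Tars rose (0 without LPD 2, 1 without CD 2 or LPD 3 and 2 without CD 1, LPD 1 or Vec LPD 2) and Gars and Vars fell (1 without CD 1, LPD 1 or LPD 3). Their shares were 20% and 10%, background 8.66% and 11.3%, 0 and 0 with the run term.

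Targets of Atf4 showed little change in c-MET/β-catenin livers, with 1 gene higher and 4 lower of 26 (3.85% and 15.4%, background 8.66% and 11.3%, 1 and 0 with the run term, median -0.26, and 0.081 within run 2). The genes that fell were Ddit4, Slc7a11, Slc7a5 and Pck2, a count that was 0 without LPD 1 or LPD 3, 1 without CD 2 and 2 without CD 1 or any 1 Vec LPD library. The gene that rose was Lonp1, a mitochondrial protease, and this count was 0 without CD 1, CD 3, any 1 LPD library, Vec LPD 2 or Vec LPD 3 and 2 without Vec CD 2. Slc7a5, which imports large neutral amino acids, was at 16.97, 24.4 and 13.9 CPM on CD and 9.43, 10.3 and 5.86 CPM on LPD (log2 fold change -1.11 ± 0.32 SE, adjusted p 0.0283), and lost its call without CD 2 (-0.86), LPD 1 (-1.18) or LPD 3 (-0.90). Atf5, a related transcription factor and the member with the highest mean level, was at 559, 502 and 517 CPM on CD and 604, 673 and 644 CPM on LPD and was not called (log2 fold change 0.28 ± 0.18 SE, adjusted p 0.299). Its LPD libraries were all above its CD libraries by a small margin. Fgf21, the hormone that liver secretes on protein restriction, was at 11.9, 26.1 and 4.26 CPM on CD and 24.6, 43.6 and 51.7 CPM on LPD (log2 fold change 1.51 ± 0.62 SE, adjusted p 0.115), with CD 2 above LPD 1. Within run 2 its log2 fold change was 3.23, against CD 3 alone, the library with the lowest level. Gdf15, a stress hormone, was at 38.99, 13.7 and 10.1 CPM on CD and 8.16, 16.4 and 15.1 CPM on LPD and was not called (log2 fold change -0.66 ± 0.44 SE, adjusted p 0.318).

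Transcripts of other cell types differed with diet. Of 16 markers of activated stellate cells and myofibroblasts, the matrix-producing cells of injured liver, 10 fell and 0 rose (62.5%, background 11.3%, 1 with the run term, median -1.80, within run 2 -0.45). Without the 2 scarce members, 8 of 14 fell. Col1a1, the main fibrillar collagen, was at 195, 151 and 23.2 CPM on CD and 7.57, 6.17 and 11.2 CPM on LPD (log2 fold change -3.89 ± 0.65 SE, adjusted p 0.00259). Timp1, an inhibitor of matrix proteases, was at 6.96, 4.61 and 1.05 CPM on CD and 0.0977, 0.175 and 0.0874 CPM on LPD (log2 fold change -5.03 ± 0.70 SE, adjusted p 0.000993), and lies within the gene Syn1. Acta2, smooth muscle actin, was at 30.5, 15.4 and 5.01 CPM on CD and 3.86, 5.26 and 1.399 CPM on LPD (log2 fold change -2.27 ± 0.66 SE, adjusted p 0.0313). CD 3 was the lowest CD library of all 3 genes, and for Acta2 it lay below LPD 2. Within run 2 the log2 fold change of Col1a1 was -1.48, and Acta2 lost its call without CD 1 (-1.53), CD 2 (-2.34), LPD 1 (-2.33) or LPD 3 (-1.89). The summed level of the list was 3996, 2683 and 1641 CPM on CD and 1822, 1652 and 1726 CPM on LPD, so CD 3 was below all LPD libraries. In Vec livers it was 1866 ± 325 CPM on CD and 2019 ± 127 CPM on LPD. Col1a1, Timp1 and Acta2 made up little of this sum, and for Col1a1 and Timp1 CD 3 was above all LPD libraries. Of 34 genes of collagens and matrix remodelling 19 fell and 0 rose (55.9%, background 11.3%, 5 with the run term, median -1.50, but -0.32 within run 2). Without the 3 scarce members, 16 of 31 fell. Markers of quiescent stellate cells, which store vitamin A, rose in 5 of 12 cases and fell in 1 (41.7% and 8.33%, background 8.66% and 11.3%, 4 and 0 with the run term, median 1.06), with Lrat, the enzyme that esterifies retinol, at 5.89, 11.01 and 7.48 CPM on CD and 15.9, 16.9 and 25.3 CPM on LPD (log2 fold change 1.26 ± 0.29 SE, adjusted p 0.0114). The count that rose was 2 without LPD 3 and 3 without CD 3. Without LPD 3, Lrat had a log2 fold change of 1.02 and was not called. The count that fell (Reln) was 0 without CD 2, any 1 LPD library, Vec CD 3 or any 1 Vec LPD library. The part of matrix-producing cells in the other values was not tested.

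Markers of recruited and lipid-associated macrophages fell in 10 of 13 cases and rose in 0 (76.9%, background 11.3%, 4 with the run term, median -1.65, within run 2 -1.35). Mmp12, an elastase of macrophages, was at 14.8, 6.69 and 12.1 CPM on CD and 0.733, 0.701 and 1.88 CPM on LPD (log2 fold change -3.34 ± 0.49 SE, adjusted p 0.00123). Trem2, a lipid receptor of these cells, was at 3.95, 4.24 and 3.37 CPM on CD and 0.440, 0.456 and 0.743 CPM on LPD (log2 fold change -2.81 ± 0.36 SE, adjusted p 0.000681). Lyz2, lysozyme, was at 109, 123 and 91.9 CPM on CD and 48.5, 58.5 and 62.6 CPM on LPD (log2 fold change -0.94 ± 0.21 SE, adjusted p 0.00940). None of the LPD libraries reached a CD library. Gpnmb was at 2.63, 1.18 and 20.2 CPM on CD and 0.440, 0.561 and 0.262 CPM on LPD and rested on CD 3, with a log2 fold change of -4.21 over all libraries and -2.16, not called, without CD 3. It was also not called without any 1 LPD library. The summed level of the list was 406, 357 and 299 CPM on CD and 114, 166 and 156 CPM on LPD. Of 11 markers of Kupffer cells, the resident macrophages, 1 rose and 0 fell (9.09%, background 8.66%, 0 with the run term): Slc40a1, the iron exporter ferroportin, at 106, 112 and 127 CPM on CD and 226, 253 and 291 CPM on LPD (log2 fold change 1.16 ± 0.18 SE, adjusted p 0.00144). This count was 2 without CD 1 or CD 3. Neutrophil markers had few reads, with 5 of 11 passing the filter on low counts, and no count over those members is given. Of the 5, 2 passed through the CD libraries alone. The log2 fold changes of the 5 ran from -4.39 to 0.10, so not all fell. S100a8 was at 4.59, 2.202 and 2.17 CPM on CD and 0.440, 0.491 and 0.918 CPM on LPD and S100a9 at 8.14, 3.302 and 2.62 CPM on CD and 0.928, 0.807 and 1.31 CPM on LPD (log2 fold change -2.28 ± 0.52 SE, adjusted p 0.0104 and log2 fold change -2.21 ± 0.43 SE, adjusted p 0.00492). Elane, neutrophil elastase, had 78 counts over the CD and 3 over the LPD libraries, a ratio of 21.8 (95% exact interval 7.19 to 108, counting error only). LPD livers alone could not have brought so scarce a gene past the filter, so its fall is a description only.

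The summed level of the red cell list was 278, 79.3 and 134 CPM on CD and 150.1, 101 and 126 CPM on LPD, most of it from Alas2. Its other members were low, and no count over those that passed the filter is given. Slc4a1, the anion exchanger of the red cell membrane, was at 9.697, 4.77 and 8.87 CPM on CD and 0.195, 0.140 and 0 CPM on LPD (log2 fold change -6.06 ± 0.67 SE, adjusted p 0.000374). Hba-a1, an α-globin gene, was at 24.9, 1.92 and 2.88 CPM on CD and 0.391, 1.09 and 0.874 CPM on LPD (log2 fold change -3.63 ± 0.90 SE, adjusted p 0.0165), with a log2 fold change of -1.58 without CD 1 and no call without LPD 1 (-3.32) or LPD 3 (-3.69). Alas2, the heme synthesis enzyme of red cells, was at 181, 57.7 and 89.2 CPM on CD and 143, 90.97 and 118 CPM on LPD and was not called (log2 fold change 0.10 ± 0.33 SE, adjusted p 0.867). It overlaps Apex2 in the annotation. Whether this RNA came from blood in the vessels or from red cell precursors in the tissue cannot be told apart.

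Among endothelial markers 4 of 14 rose and 0 fell (28.6%, background 8.66%, 2 with the run term, median 0.29, within run 2 0.43), with counts of 1 without CD 2, LPD 2 or LPD 3 and 2 without CD 3. They were Fcgr2b, Oit3, Dnase1l3 and Clec4g. Clec4g, a lectin of sinusoidal endothelium, was at 20.1, 23.6 and 26.3 CPM on CD and 51.97, 63.1 and 66.2 CPM on LPD (log2 fold change 1.38 ± 0.18 SE, adjusted p 0.000707). The endothelial signals that keep β-catenin active near the central vein were tested for 3 genes. Wnt2 was at 0.981, 1.22 and 1.27 CPM on CD and 2.296, 3.65 and 5.33 CPM on LPD (log2 fold change 1.70 ± 0.37 SE, adjusted p 0.00780). Rspo3, the R-spondin of central vein endothelium, was at 2.597, 2.405 and 2.13 CPM on CD and 6.399, 5.16 and 6.73 CPM on LPD (log2 fold change 1.35 ± 0.20 SE, adjusted p 0.00114). Wnt9b was at 1.18, 1.59 and 0.748 CPM on CD and 1.42, 1.82 and 2.14 CPM on LPD and was not called (log2 fold change 0.62 ± 0.43 SE, adjusted p 0.343). All LPD libraries of Wnt2 and Rspo3 were above all CD libraries, with levels in the range of the Vec means (3.98 CPM on CD for Wnt2 and 6.35 for Rspo3). Of 7 B and plasma cell markers, 2 rose, among them Mzb1, and 0 fell (28.6%, background 8.66%, 0 with the run term), besides Ighg1, described above, which is in no list. Mzb1, a chaperone of antibody-secreting cells, was at 0.115, 0.0408 and 0.262 CPM on CD and 0.440, 0.526 and 1.53 CPM on LPD (log2 fold change 2.52 ± 0.69 SE, adjusted p 0.0232). It lost its call without CD 1 (2.38), CD 2 (2.15) or LPD 3 (1.76). The count of the list was 0 without CD 2 or LPD 3 and 1 without CD 1. Without the 2 scarce members, 1 of 5 rose. Of 16 T and NK cell markers 13 were tested and 0 were called by edgeR (2 at an unadjusted p under 0.05 and 1 by DESeq2), and their summed level was 7.56, 11.6 and 11.2 CPM on CD and 8.499, 9.05 and 14.4 CPM on LPD. Of 10 cholangiocyte markers, 3 fell and 1 rose (30% and 10%, background 11.3% and 8.66%, 3 and 0 with the run term), and those that fell were Tspan8 at 35.5, 35.5 and 27.5 CPM on CD and 2.1, 5.01 and 0.743 CPM on LPD, Krt19 at 3.67, 6.56 and 7.03 CPM on CD and 0.928, 1.16 and 0.874 CPM on LPD and Spp1 at 368, 280.1 and 111 CPM on CD and 34.8, 47.03 and 45.4 CPM on LPD (log2 fold changes -3.62, -2.53 and -2.58). The gene that rose was Onecut1, a transcription factor also of hepatocytes (log2 fold change 1.79 ± 0.52 SE, adjusted p 0.0336), and its call was lost without any 1 CD library, without LPD 1 and without LPD 3 (log2 fold changes 1.61 to 1.90).

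Interferon-stimulated genes fell in 13 of 30 cases and rose in 0 (43.3%, background 11.3%, 22 with the run term, median -1.37, within run 2 -2.27). Oas1a, a sensor of double-stranded RNA, was at 8.398, 16.3 and 55.9 CPM on CD and 2.39, 4.17 and 2.88 CPM on LPD (log2 fold change -3.08 ± 0.60 SE, adjusted p 0.00530), Oas1g was at 2.17, 4.97 and 22.8 CPM on CD and 0.391, 1.23 and 0.656 CPM on LPD (log2 fold change -3.67 ± 0.78 SE, adjusted p 0.00764), and Ifi44 was at 2.92, 7.87 and 53.5 CPM on CD and 1.56, 2.84 and 1.27 CPM on LPD (log2 fold change -3.48 ± 0.88 SE, adjusted p 0.0181). CD 3 was the highest library of all 3 genes. Without CD 3, 8 members of the list fell and the log2 fold changes were -1.95 for Oas1a, -2.19 for Oas1g and -1.49 for Ifi44 (not called). Ifi44 was also not called without LPD 1 (-3.36) or LPD 3 (-3.26), and the list count was then 7 and 5. Of 20 genes of antigen presentation, 2 fell and 0 rose (10%, background 11.3%, 2 with the run term), H2-Q4 (log2 fold change -1.16 ± 0.17 SE, adjusted p 0.00135) and Tapbp (log2 fold change -1.06 ± 0.19 SE, adjusted p 0.00370), and 4 fell without CD 1. Of 29 chemokines and their receptors, 21 passed the filter on low counts, and no count over those members is given. Ccl2, which recruits monocytes, was at 6.15, 6.401 and 1.87 CPM on CD and 0.537, 0.456 and 0.568 CPM on LPD (log2 fold change -3.20 ± 0.69 SE, adjusted p 0.00818), while Cxcl12, a chemokine of stromal cells, was higher on LPD, at 115, 178 and 169 CPM on CD and 249, 289 and 355 CPM on LPD (log2 fold change 0.95 ± 0.18 SE, adjusted p 0.00389).

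Acute phase genes, which hepatocytes switch on under interleukin-6, were divided, with 3 higher (Saa3, Saa4 and Hamp) and 4 lower (Orm3, Lcn2, Apcs and Steap4) of 20 (15% and 20%, background 8.66% and 11.3%, 1 and 0 with the run term). Hamp, the iron hormone hepcidin, was at 61.8, 97.7 and 11.04 CPM on CD and 451, 581 and 994 CPM on LPD (log2 fold change 3.57 ± 0.63 SE, adjusted p 0.00339). Lcn2, lipocalin 2, was at 859, 222 and 266 CPM on CD and 37.4, 16.3 and 11.9 CPM on LPD (log2 fold change -4.36 ± 0.81 SE, adjusted p 0.00446). CD 3 was lowest for Hamp and CD 1 highest for Lcn2, and the diet groups did not overlap for either. The count that fell was 1 without CD 1, LPD 1 or LPD 2 and 2 without LPD 3. The count that rose was 1 without CD 2, CD 3 or LPD 3. Of 25 Nrf2 targets, 2 rose and 5 fell (8% and 20%, background 8.66% and 11.3%, 0 and 5 with the run term), with Srxn1, which repairs peroxiredoxins, at 183, 113 and 287 CPM on CD and 46.3, 58.6 and 32.9 CPM on LPD (log2 fold change -2.08 ± 0.32 SE, adjusted p 0.00153). The count that fell was 1 without LPD 3, 2 without CD 3 or LPD 1 and 3 without any 1 Vec LPD library. The count that rose (Gstp1 and Me1) was 0 without CD 1 or any 1 LPD library and 1 without CD 2 or any 1 Vec LPD library. Of 50 cytosolic ribosomal protein genes, 6 fell and 0 rose (12%, background 11.3%, 0 with the run term), with a median of -0.30 and -0.095 within run 2. The count was 0 without CD 1, CD 2 or LPD 2, 1 without LPD 3, 2 without LPD 1, 3 without Vec LPD 3 and 19 without Vec CD 2. In 23 of the 50, every LPD library lay below every CD library (20.0% over all genes), and log2 fold changes ran from -0.60 to -0.092. Of 27 coagulation and complement genes 3 rose (0 without CD 2, 1 without CD 1, LPD 1 or LPD 3, 5 without Vec CD 1 and 6 without Vec CD 2) and 1 fell (2 without LPD 1 or Vec CD 2). Their shares were 11.1% and 3.7%, background 8.66% and 11.3%, 1 and 0 with the run term, and the median was 0.17. Of 18 clock genes, 3 rose, among them Hlf and Bhlhe41 (1 without LPD 1 or LPD 3 and 7 without CD 2), and Npas2 fell (0 without CD 1, LPD 1 or LPD 3 and 2 without CD 2). Shares were 16.7% and 5.56%, background 8.66% and 11.3%, 1 and 0 with the run term, and the median was 0.29. Of 21 endoplasmic reticulum chaperones, Herpud1 rose (4.76%, background 8.66%, 0 with the run term, 0 without CD 1, CD 3, any 1 LPD library or any 1 Vec LPD library, 2 without Vec CD 1 and 8 without Vec CD 2). Every LPD library was nonetheless above every CD library in 13 of the 21 (19.2% over all genes), with a median of 0.41 and 0.48 within run 2. Their summed level was 14260 CPM in Vec CD 2, against 5576 and 5735 CPM in Vec CD 1 and Vec CD 3. By edgeR, 0 of 13 heat shock proteins and 0 of 22 ribosome biogenesis genes were called (respectively 2 at an unadjusted p under 0.05 and 2 by DESeq2, and 1 at an unadjusted p under 0.05 and 0 by DESeq2), with medians of 0.19 and -0.02.

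The diet effect in c-MET/β-catenin livers was then set against that in Vec livers. Of the 43 genes called in Vec livers (26 higher, 0.186%, and 17 lower, 0.122%), 12 were called the same way in c-MET/β-catenin livers and 9 the other way. The former were 27.9% of the genes called in Vec livers and 0.431% of those called in c-MET/β-catenin livers. They include Csad, with a log2 fold change of 3.31 in Vec livers and 2.40 with the oncogenes, and Slco1a4, with -2.05 and -2.88. The Vec call was lost for Csad without Vec CD 2 and for Slco1a4 without LPD 3, Vec CD 2, Vec LPD 2 or Vec LPD 3. Tcf7 was among the 9, with 1.28 in Vec livers against -1.79 with the oncogenes (difference -3.06, adjusted p 0.000373). Its Vec call was lost without Vec CD 2, Vec LPD 2 or Vec LPD 3, and with the run term. The difference between the 2 diet effects was called for 1243 genes (8.91%), above 0 for 626 (4.49%) and below 0 for 617 (4.42%). The count in Vec livers was small and moved with single libraries: it was 104 without CD 1, 65 without CD 2, 103 without Vec CD 1, 8 without Vec CD 2, 13 without Vec CD 3, 26 without LPD 3, 6 without Vec LPD 2 and 5 without Vec LPD 3. The count of differences was 645 without LPD 1, 508 without LPD 3, 787 without Vec LPD 1, 391 without Vec LPD 2 and 542 without Vec LPD 3.

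For cholesterol synthesis, the difference was called below 0 for 18 of 22 genes (81.8%, background 4.42%, 11 with the run term). Medians were 0.69 in Vec livers and -1.83 in c-MET/β-catenin livers, although 0 members were called in Vec livers by edgeR (14 at an unadjusted p under 0.05 and 5 by DESeq2). Hmgcs1 was at 177 ± 85.2 CPM on CD and 573 ± 126 CPM on LPD in Vec livers, a log2 fold change of 1.70 (adjusted p 0.0886), against -2.24 in c-MET/β-catenin livers (difference -3.94, adjusted p 0.00343). For nuclear oxidative phosphorylation genes the difference was called above 0 for 24 of 36 genes (66.7%, background 4.49%, 0 with the run term), with medians of -0.18 in Vec livers and 0.53 in c-MET/β-catenin livers. This count was 3 without LPD 3, Vec LPD 2 or Vec LPD 3, 8 without LPD 1, 10 without CD 2, 12 without CD 1, 13 without LPD 2 and 14 without Vec LPD 1. Periportal genes gave 12 of 20 above 0 (60%, background 4.49%, 3 with the run term, medians -0.49 and 1.41), with 6 without Vec LPD 2. Amino acid catabolism gave 17 of 40 (42.5%, background 4.49%, 1 with the run term, medians -0.45 and 0.37), with 6 without Vec LPD 2, 8 without LPD 3 or Vec LPD 3, 9 without LPD 1 and 11 without Vec CD 1, Vec CD 3 or Vec LPD 1. In the urea cycle list 4 of 10 differences were called above 0 (40%, background 4.49%, 0 with the run term), with 2 without LPD 1, LPD 3, Vec CD 3, Vec LPD 2 or Vec LPD 3. Asl fell in Vec livers (-1.17, adjusted p 0.0262) but was not called in c-MET/β-catenin livers (0.33), with a difference of 1.5 (adjusted p 0.00751). Its Vec call was lost without Vec CD 2, Vec CD 3, Vec LPD 2 or Vec LPD 3, and with the run term. The difference was also called for Otc (2.48, adjusted p 0.0107) and Cps1 (2.72, adjusted p 0.0262). The call for Cps1 was lost without CD 1, LPD 1, LPD 3, Vec CD 3, Vec LPD 2 or Vec LPD 3.

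Targets of Atf4 went the other way, with medians of 1.02 in Vec livers and -0.26 in c-MET/β-catenin livers and 10 of 26 differences called below 0 (38.5%, background 4.42%, 0 with the run term). In Vec livers 4 of the 26 members were called higher (15.4%, background 0.186%, 2 with the run term). This count was 1 without Vec CD 2, Vec LPD 2 or Vec LPD 3 and 2 without Vec CD 3. Among the 4 was Atf5, which was called in Vec livers in all 12 fits that left out 1 library (1.53, adjusted p 0.00987; difference -1.25, adjusted p 0.0152). Fgf21 had log2 fold changes of 3.50 in Vec livers and 1.51 in c-MET/β-catenin livers, and its difference was not called (-1.99, adjusted p 0.198). In the mitosis list the difference was called below 0 for 6 of 45 genes (13.3%, background 4.42%, 0 with the run term, median -0.17 in Vec livers), with 2 without LPD 1, LPD 3, Vec LPD 1 or Vec LPD 2, 3 without CD 1, Vec CD 1 or Vec LPD 3 and 15 without Vec CD 3. For collagen and matrix genes it was called below 0 in 10 of 34 cases (29.4%, background 4.42%, 1 with the run term), with 3 without LPD 1 or Vec LPD 2, 4 without LPD 2 or LPD 3, 5 without CD 1, CD 2, Vec CD 1, Vec CD 2 or Vec LPD 1, 6 without Vec LPD 3 and 17 without CD 3. For recruited macrophages it was called below 0 in 7 of 13 cases (53.8%, background 4.42%, 1 with the run term), with 3 without LPD 1 or Vec LPD 2 and 4 without CD 1, LPD 2 or Vec CD 1. Of the 21 Mups tested, 13 differences were called above 0 and 0 below (61.9% above, background 4.49%, 1 with the run term).

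**Figure D4:**
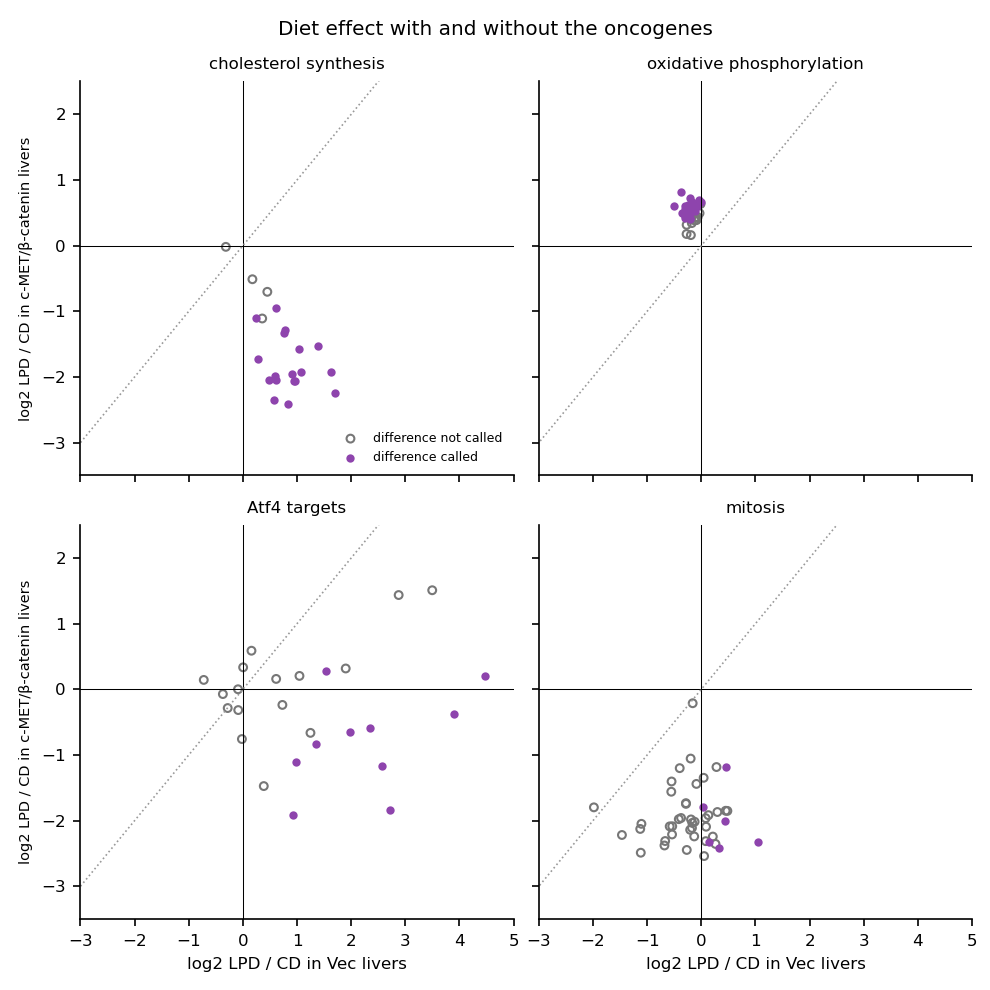
Log2 fold change on LPD in Vec livers (x axis) and in c-MET/β-catenin livers (y axis) for the tested members of 4 lists. Filled points are genes whose difference between the effects was called, and the dotted line marks equal effects. All but 1 of the cholesterol synthesis genes lie to the lower right (medians 0.69 and -1.83), and all oxidative phosphorylation genes lie left of 0 and above 0 (medians -0.18 and 0.53).

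The runs of dataset numbers and CD 1 bore on some of these values more than on others. With a term for the run, 618 genes were called, 569 of them also without it. Of the 100 called genes that are given with values, 50 were also called with the run term and 67 within run 2. Those called with the run term were Bard1, Bex1, Ccn5, Cep55, Clec4g, Creb3l3, Csad, Ctps2, Cyp2f2, Cyp2u1, Dusp5, Gldn, Gpnmb, H19, H2-Q4, Hal, Hamp, Hmgcs1, Hsd17b6, Ifi44, Igdcc4, Ighg1, Krt19, Mcm6, Mmp12, Mup16, Mup19, Mup3, Mup9, Mvk, Oas1a, Oas1g, Oat, Prc1, Prtn3, Ren1, Rspo3, Slc13a3, Slc37a4, Slc4a1, Slco1a4, Spp1, Sprr1a, Srxn1, Tapbp, Tcf7, Timp1, Trem2, Tspan8 and Ube2c. The calls of the other genes rest on a fit that leaves out the run. The run term in turn sets LPD against CD 3 alone, so calls with it depend on the level of that library. For Gpnmb, Ifi44, Oas1a and Oas1g, CD 3 was the highest CD library. Mitosis (-2.02 over all libraries and -2.36 within run 2), cholesterol synthesis (-1.83 and -1.98) and recruited macrophages (-1.65 and -1.35) had similar medians on both scales. With the run term, however, the members called lower went from 42 to 29, from 18 to 12 and from 10 to 4. Activated stellate cells (-1.80 and -0.45) and collagens (-1.50 and -0.32) were smaller within run 2, and interferon-stimulated genes (-1.37 and -2.27) were larger. CD 1 and CD 2 are the only c-MET/β-catenin libraries of run 1, so the run and these livers cannot be told apart.

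**Figure D5:**
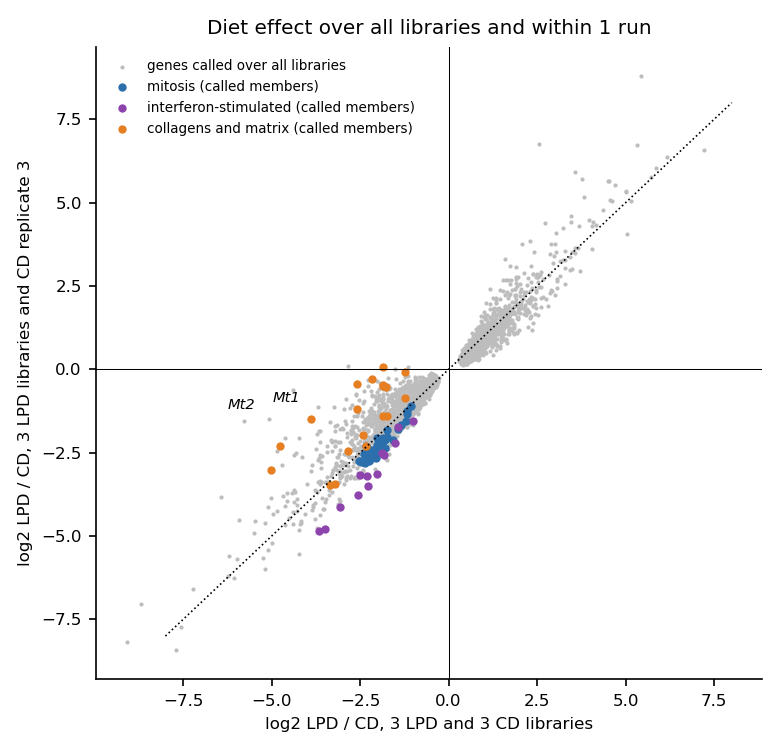
Log2 fold change on LPD within run 2, with CD 3 as the only CD library (y axis), against that over all 6 c-MET/β-catenin libraries (x axis), for genes called over all libraries. Colored points are called members of 3 lists and the dotted line marks equal values. All 13 interferon-stimulated genes lie below the line and 17 of 19 collagen and matrix genes above it, as do Mt1 and Mt2, whose values rested on CD 1.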

How the data were processed

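Bulk liver RNA-seq of 12 mice was analysed. Per the labels and methods, the authors aligned reads to mm10 with HISAT2 and counted them per gene with featureCounts. Their versions, the strand setting and the handling of multimapping reads are not given in the sources used here. The deposited values are raw counts, with 19476209 to 31990267 per library. The labels name rRNA depletion and the methods a stranded mRNA kit. The columns call chow diet HPD. The third header line carries workflow numbers, from which the 3 runs were taken.

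Of 27179 Entrez identifiers, 25275 (93%) matched a RefSeq symbol. All 12 libraries entered 1 fit with 1 coefficient per group (edgeR 4.0.16, R 4.3.3: TMM, filterByExpr, robust quasi-likelihood, Benjamini-Hochberg), and 3 contrasts were tested: diet in c-MET/β-catenin livers, diet in Vec livers and their difference. The biological coefficient of variation was 23.2%. SEs are the log2 fold change over the root of F. Tables and figures were made in Python 3.11.15, and the code was tested on simulated data. Exact intervals cover counting error only. Alternatives were DESeq2 1.42.0, other scaling factors and filters, a replicate block, a run term, run 2 alone, fewer groups, and leaving out each library.

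Members and the 52 gene lists were chosen with earlier results of these data known. Named genes were the 10 largest called changes in each direction with non-overlapping groups and a mean of at least 5 CPM (no clone, Gm, Rik or LOC names), the 3 largest called changes and the highest gene of each list, all urea cycle and endothelial Wnt genes, and 12 marker genes. Of these 208 genes, 116 are given with values, and some of the others, along with some members of small counts, are not reported here. Genes named without values belong to counts of 5 or fewer and were chosen after their values were seen. Of list members in the table, 1 each of endothelial Wnt ligands, B and plasma cells, red blood cells, β-catenin targets, MET and ERK feedback, DNA replication, pyrimidine synthesis, the Mup list, fatty acid synthesis, cytochrome P450 genes, Nrf2 targets and collagens and matrix, 2 each of cholangiocytes, fetal and progenitor genes, glutamine and ammonia handling, Atf4 targets and nuclear oxidative phosphorylation, 3 of T and NK cells, 6 of neutrophils, and 8 of chemokines and receptors failed the filter and were not tested. Mups and immunoglobulin genes share near-identical copies, and Mup16, Timp1, Wnt9b, Alas2, Tcf7, Bex1, Prc1, Gls2, Csad, Atf5, Ctps2, Uqcrc2, Lgr5 and Cad overlap other protein-coding genes in the annotation, and Gldn, H19, Onecut1, Lrat, Clec4g, Slc13a3, Glul, Scd2, Cep55, Nags, Slc25a12, Gldc, Pkm, Fbp1, Slc37a4, Atp5b, Tapbp, Ctnnb1, Met and Igf1 overlap noncoding genes or pseudogenes, so their reads are uncertain.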

Additional observations from a re-analysis of the deposited data

Results flagged for a closer look

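The diet effect, as log2 LPD over CD, differed between livers with and without the oncogenes at an adjusted p under 0.05 (edgeR's quasi-likelihood test of the interaction) for 70 of the genes described with values. The differences below are the effect in c-MET/β-catenin livers minus that in Vec livers, and causes were not tested. Many of these calls were not stable. Of the 70, 31 were called in all 12 fits that left out 1 library, 24 were lost in 1 to 5 of these fits and 15 in 6 or more. The last were Cps1 (6 fits), Btg2 and S100a9 (7 fits), Gldc (8 fits), Col1a1, Fbp1, Lyz2, Mup2, Mup8, Rrm2 and Tapbp (9 fits), Nr1h4 and Slc40a1 (10 fits) and Bard1 and Lgr5 (11 fits). With the run term 13 of the 70 were called, and by DESeq2 70.

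Above 0 were the secreted pheromone carriers Mup1 (7.55), Mup2 (8.26), Mup3 (3.46), Mup8 (6.73), Mup9 (4.13), Mup12 (4.88), Mup16 (4.12), Mup19 (3.87) and Mup21 (6.12). Without Vec CD 3 the difference of Mup2 was 4.77 and was not called. The male-specific enzyme Hsd3b5 (3.45), the bile acid enzyme Cyp8b1 (1.54) and the cytochrome P450 Cyp2u1 (2.56) were above 0 as well. Among periportal genes and enzymes of nitrogen and pyrimidine breakdown they were Cyp2f2 (4.46), Hsd17b6 (4.51), Hal (3.05), Gldc (2.29), Gls2 (2.96), Cps1 (2.72), Otc (2.48), Asl (1.5) and Dpyd (1.67). In sugar metabolism they were Fbp1 (1.25) and Slc37a4 (1.53), and in oxidative phosphorylation Ndufb3 (1.19), Ndufb8 (0.93) and Uqcrc2 (0.74). Hepatocyte transcription factors gave Nr1h4 (0.94), Creb3l3 (0.96) and Onecut1 (3.73), the hormone gene Hamp gave 3.56 and the pseudogene Serpina4-ps1 gave 7.22. Genes of endothelium, macrophages, stroma and antibody gave Clec4g (1.18), Rspo3 (1.31), Slc40a1 (0.94), Cxcl12 (1.11) and Ighg1 (5.64), and the replication factor gene gave Mcm10 (3.08).

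Below 0 were the cholesterol synthesis genes Hmgcs1 (-3.94) and Mvk (-3.24). Targets of β-catenin and pericentral genes gave Axin2 (-1.63), Tcf7 (-3.06), Lgr5 (-2.40), Glul (-1.39) and Slc13a3 (-2.14), of which Lgr5 was not called in c-MET/β-catenin livers on its own. Fetal and other genes with the largest fall gave H19 (-5.13), Bex1 (-4.72), Gldn (-6.44), Igdcc4 (-4.78), Ccn5 (-5.15) and Prtn3 (-4.80). Genes of replication, repair and growth arrest gave Rrm2 (-2.24), Bard1 (-2.44), Btg2 (-2.88) and Ctps2 (-1.36). Amino acid transport and stress genes gave Slc7a5 (-2.10), Atf5 (-1.25), Srxn1 (-1.96) and Igfbp1 (-4.62). Markers of other cells gave Col1a1 (-3.53), Mmp12 (-3.12), Trem2 (-2.52), Lyz2 (-1.09), S100a8 (-3.16), S100a9 (-2.47) and Slc4a1 (-5.87) and the cholangiocyte list Tspan8 (-3.90), Spp1 (-2.90) and Krt19 (-3.10). The antigen presentation genes H2-Q4 (-1.07) and Tapbp (-0.99) were also below 0. With 3 libraries a group, single outlying values were not tested by Dixon's criterion, and values that rested on 1 library were found by leaving out each library in turn.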

How the results depend on the processing

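Of 9 settings besides leaving out single libraries, a term for the run and the libraries of run 2 alone moved the count of genes called in c-MET/β-catenin livers by over 1.5 times, to 618 and 1720 from 2784. The share of these calls that were higher was 43.4%, but 34.3% with total counts only, where the median over all genes was -0.0858, and 28.6% with the run term. In Vec livers the count went from 43 to 340 with DESeq2, 3 with only the 6 libraries compared, 16 with the replicate block, 16 with the run term, 66 with total counts only and 136 within run 2. For the difference between the effects it went from 1243 to 2010 with DESeq2, 812 with the replicate block, 85 with the run term and 390 within run 2, and the share above 0 from 50.4% to 29.0% with total counts only (median -0.156) and 37.6% with the run term. The fit on only the 6 libraries compared gives no difference. Leaving out 1 library gave 1585 (without LPD 3) to 3660 genes in c-MET/β-catenin livers, 5 to 104 in Vec livers and 391 to 1404 for the difference.

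Replicate numbers did not pair the livers: deviations of libraries with the same number correlated at -0.0929, -0.0364 and -0.11, and the block is therefore given only here. Directions turned, among values that were not called, for Ass1 (-0.36 with the run term and within run 2, -0.0512 to 0.82 with 1 library left out), Slc25a15 (-0.11 with both), Ctnnb1 (-0.094 with both, -0.041 with total counts, -0.088 to 0.13 with 1 library left out), Met (-0.00065 with total counts, -0.068 to 0.22 with 1 library left out), Gdf15 (0.39 with both, -0.99 to 0.15 with 1 library left out) and Alas2 (-0.20 to 0.67 with 1 library left out). The medians of Atf4 targets (0.079 with the run term, 0.081 within run 2, -0.39 to 0.01 with 1 library left out), glycolysis (0.052 with both, -0.53 to 0.0016 with 1 library left out) and aminoacyl-tRNA synthetases (-0.0045 with total counts) turned as well. With at least 1 CPM required in 6 libraries, fewer mitosis genes were tested and 27 fell. Depth limits markers of neutrophils and red cells, which had few reads on LPD. With 3 livers a group, whether the other differences recur in further mice was not tested.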
